A study of Mus musculus with 6 samples.

Results

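The CC chemokines are small secreted proteins that draw leukocytes toward a tissue, and fractalkine, the product of Cx3cl1, is the single member of the CX3C family. The 10 genes described here are Ccl2, Ccl5, Ccl7, Ccl8, Ccl9, Ccl17, Ccl19, Ccl20, Ccl28 and Cx3cl1. They were found by their symbol in a table of 44519 rows and 44169 named symbols. They filled 12 rows, because Ccl28 and Cx3cl1 have 2 rows each. All 12 rows passed the filter on low values, which asked for at least 1 FPKM (fragments per kilobase of transcript, scaled to the sequenced fragments of the library) in at least 3 libraries, and none passed it through 1 group only.

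Messenger RNA was measured by bulk sequencing in 6 libraries of horizontal basal cells (HBCs), the reserve stem cells at the base of the olfactory epithelium, sorted from mouse olfactory neuroepithelium for the green fluorescence of Krt17-EGFP. The 3 control libraries (replicates 1, 2 and 4, also called by these numbers as libraries) came from Krt17-EGFP mice that received no doxycycline. The 3 TNF libraries (replicates 1, 3 and 4) came from mice with the genotype Krt17-EGFP; Cyp2g1-rtTA; TRE-TNF in which olfactory inflammation had run for 6 weeks. All mice carried the reporter and only the TNF group carried the other transgenes. Through them doxycycline induces tumor necrosis factor (TNF) in cells that use the Cyp2g1 promoter, a gene of sustentacular and gland cells and not of HBCs. Genotype, transgene and doxycycline differ together between the groups and cannot be told apart. Ages were not given, and the labels do not name separate animals, so each p-value reflects only the scatter of these libraries, which may be technical. In bulk RNA, fewer cells of a type and less RNA per cell cannot be told apart.

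Chemokines act through G-protein-coupled receptors on leukocytes, and several ligands often share a receptor. Ccl2 and Ccl7 draw monocytes through Ccr2, Ccl19 draws dendritic cells and T cells through Ccr7, and Ccl20 draws lymphocytes and dendritic cells through Ccr6. Fractalkine is made as a membrane-bound protein that holds Cx3cr1-bearing cells and can be cut free by Adam10 and Adam17. TNF is known to switch on many of these genes through NF-kB, a transcription factor that binds the kappaB motif.

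Sequences just before the start of each gene are shown for the members whose window holds a kappaB motif, since NF-kB is the factor by which TNF signalling is best known to reach chemokine genes. RefSeq (GRCm38.p6) gave a window of 300 bases, 250 before the start and 50 from it, for 7 of the 10 members, which leaves Ccl2, Ccl5 and Ccl7 without one. The NF-kB kappaB motif of 10 letters, read on both strands, was present in 2 of the 7 windows, those of Ccl20 and Ccl9. Of all 32851 windows of the same length, 8.5% held it. The stretches of 60 bases around each match are given 5′ to 3′ on the gene's strand, with the match in capitals. Both matches read as the motif on the opposite strand, so the capitals show its reverse complement. The Ccl20 match begins 80 bases before the start, within chr1:83116661-83116720 (plus strand). The Ccl9 match begins 35 bases before the start, within chr11:83578637-83578696 (minus strand).
Ccl20: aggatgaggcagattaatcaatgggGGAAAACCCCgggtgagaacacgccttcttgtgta
Ccl9: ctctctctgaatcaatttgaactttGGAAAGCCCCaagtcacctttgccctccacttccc
The letters TATAAA, read on both strands, were found in 3 of the 7 windows (Ccl8, Ccl9 and Cx3cl1) and in 13.6% of all windows. A match is a description of the letters and does not show that a factor binds there.

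Across the 10 genes, 1 row was higher in the TNF group (Ccl9) and 2 were lower (Ccl17 and 1 of the Ccl28 rows), by limma on log2(FPKM + 1) with Benjamini-Hochberg adjustment over 15037 tested rows. The background was 10.9% of all tested rows higher and 27.2% lower. The same shares are the background for the counts of the other lists below wherever all libraries were used. The median difference was 0.79 over the 12 rows and -0.22 over all tested rows, both on the log2(FPKM + 1) scale, on which changes of low genes are understated. The count higher was 2 without control replicate 2 and 2 without control replicate 4, where 1463 and 1406 of the 15037 rows were higher. When only TNF replicates 3 and 4 were set against the controls, 4 rows were higher (Ccl2, Ccl7, Ccl9 and Ccl19), and Ccl17 and the same Ccl28 row were lower. In that comparison 14.7% of all tested rows were higher and 32.9% were lower. With control replicate 4 omitted as well, 6 members were higher, against 18.9% of all tested rows. With TNF replicate 1 omitted and median-of-ratios scaling 4 were higher, against 20% of all tested rows. TNF replicate 1 is given apart from the other TNF libraries because earlier results of these data set it apart, so this split is not independent evidence.

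**Figure D1:**
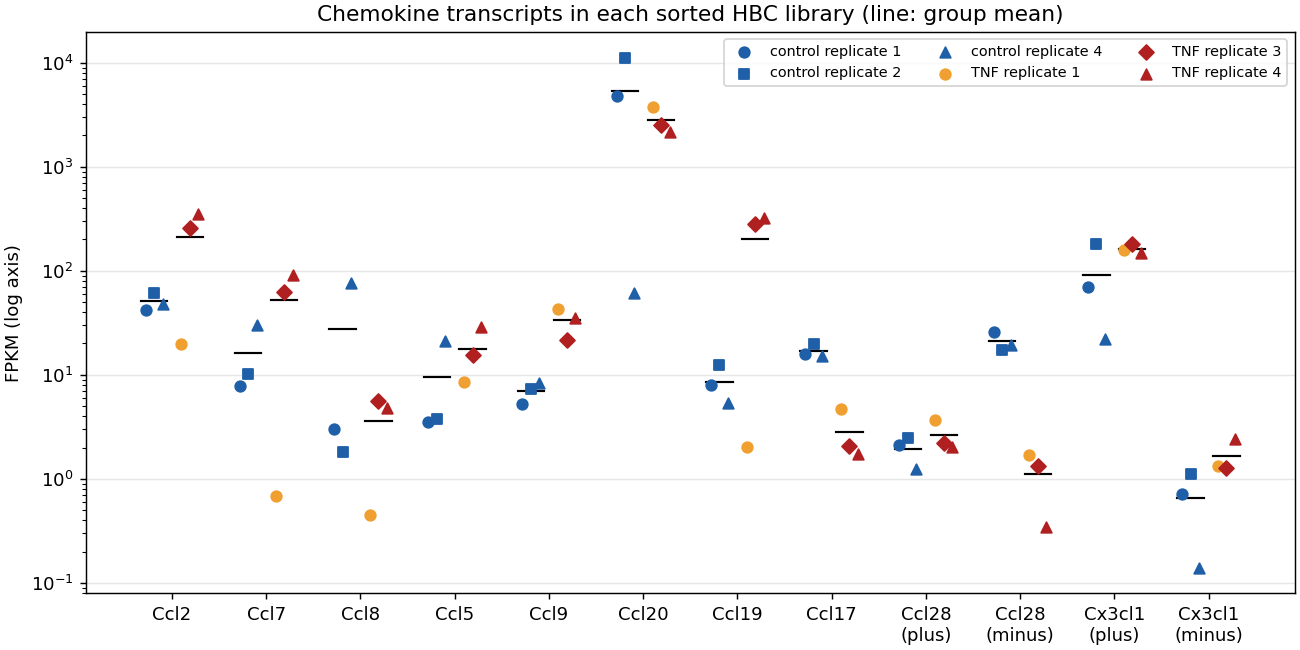
FPKM of each row on a log axis, by library, with the group mean as a black line. Controls are blue, TNF replicate 1 is orange and TNF replicates 3 and 4 are red. Ccl9 lies above the controls in every TNF library, Ccl17 and the minus-strand Ccl28 row lie below, and the orange point stands apart from the red ones for Ccl2, Ccl7 and Ccl19.

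The monocyte chemokine Ccl2 was high in TNF replicates 3 and 4 only. The gene lies on chromosome 11, 82035571 to 82037453, plus strand (GENCODE M21, GRCm38, as for the positions that follow). Its row also spans Gm17268 on the other strand, whose own row was at 0 in every library. Its level was 42.2, 61.4 and 48.4 FPKM in control libraries 1, 2 and 4, and 19.9, 258 and 351 FPKM in TNF libraries 1, 3 and 4. TNF replicate 1 was thus below every control, and the other TNF libraries were above all of them. Over all 6 libraries the group means were 50.7 ± 9.82 and 210 ± 171 FPKM (SD, n = 3 each), and the log2 difference of 1.28 ± 1.01 (SE) did not pass (limma adjusted p = 0.359). Without TNF replicate 1 the mean was 6.01-fold that of the controls, with a log2 difference of 2.56 ± 0.22 (limma adjusted p = 0.000744).

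Ccl7, a second Ccr2 ligand 8259 bp further along chromosome 11 (82045712 to 82047525, plus strand), had the same order of TNF libraries. Its level was 7.83, 10.2 and 30.2 FPKM in the controls and 0.689, 63.0 and 92.0 FPKM in TNF libraries 1, 3 and 4. TNF replicate 1 held the lowest value and the other TNF libraries the highest, so the groups overlapped. The log2 difference was 0.57 ± 1.495 with all libraries (limma adjusted p = 0.793), and its sign changed without TNF replicate 3 (-0.21) or TNF replicate 4 (-0.48). Without TNF replicate 1 it was 2.41 ± 0.56 (limma adjusted p = 0.0160), and the mean was 4.82-fold that of the controls.

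Ccl19, a ligand of Ccr7 that stromal cells of lymphoid tissue are known to make, differed most between TNF libraries. It lies on chromosome 4, 42754525 to 42756577, minus strand, and the annotation holds 2 genes of this name. Its row carries wider bounds, 42735545 to 42856771, which are also those of the Ccl21a row. The Ccl19 level was 7.89, 12.4 and 5.37 FPKM in the controls, and 2.01, 281 and 324 FPKM in TNF libraries 1, 3 and 4. The mean of TNF replicates 3 and 4 was 151-fold the value of TNF replicate 1, against ratios of 15.3 for Ccl2 and 113 for Ccl7. With all libraries the log2 difference was 2.83 ± 1.74 (limma adjusted p = 0.244). Without TNF replicate 1 it was 5.05 ± 0.32 (limma adjusted p = 0.000362), a 35.3-fold higher mean.

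The Ccl19 level is uncertain because the genome holds a near-identical copy, the pseudogene Ccl19-ps1 on chromosome 4, and the sources used here do not give how reads that fit both were shared. Over the 327 bases of the Ccl19 coding sequence, 323 (98.8%) were the same in the copy. Bases 1 to 120, 5′ to 3′ from the GENCODE M21 transcripts, are shown because they hold 3 of the 4 differences, which are in capitals.
Ccl19: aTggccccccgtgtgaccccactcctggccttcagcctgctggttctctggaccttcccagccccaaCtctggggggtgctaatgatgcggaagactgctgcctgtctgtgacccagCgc
Ccl19-ps1: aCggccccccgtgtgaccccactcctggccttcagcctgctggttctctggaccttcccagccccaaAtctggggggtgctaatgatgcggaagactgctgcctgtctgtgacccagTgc
Counted from 1 at the first base of the coding sequence, with the Ccl19 base first, the differences are T2C, C68A, C118T and A267C. The copy was at 11.4, 19.9 and 14.5 FPKM in the controls and at 0.422, 180 and 202 FPKM in TNF libraries 1, 3 and 4. The order of its TNF libraries was that of Ccl19, whereas control libraries 1 and 4 were in the opposite order. Without TNF replicate 1 its log2 difference was 3.59 ± 0.24 (limma adjusted p = 0.000407).

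**Figure D2:**
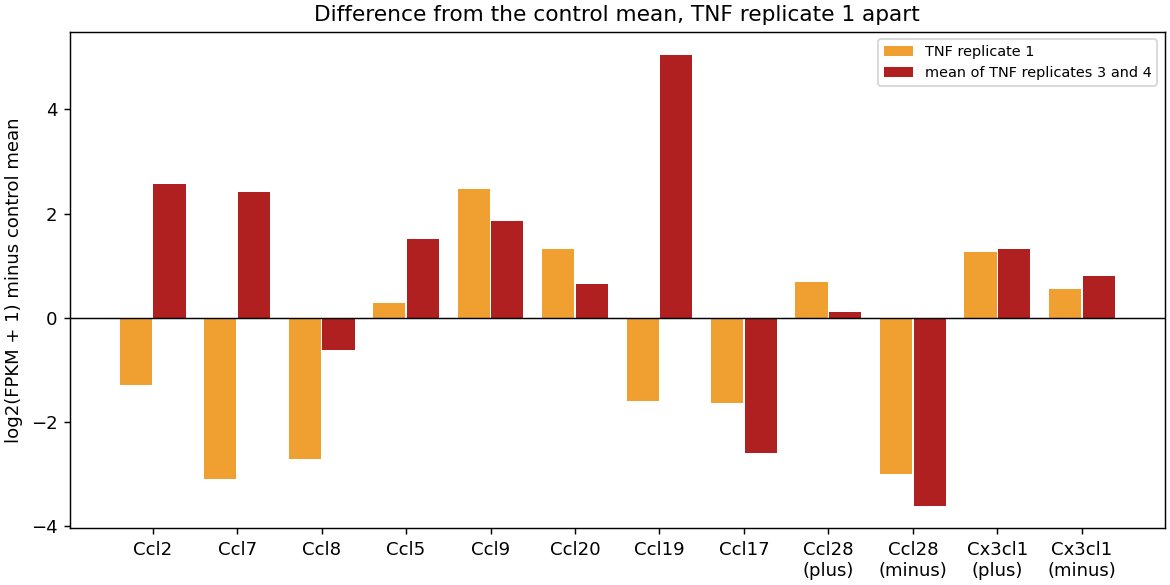
Log2(FPKM + 1) of TNF replicate 1 (orange) and of the mean of TNF replicates 3 and 4 (red), each minus the control mean, for the 12 rows. The orange bars of Ccl2 (-1.29), Ccl7 (-3.11) and Ccl19 (-1.60) are below 0 and their red bars are at 2.56, 2.41 and 5.05, while Ccl9, Ccl17 and the minus-strand Ccl28 row have both bars on 1 side.

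Summed markers of stroma and vessels had the same order of TNF libraries. The summed level of 7 fibroblast markers ran from 141 to 528 FPKM in the controls, and was 41.7 in TNF replicate 1 and 1084 and 1557 in TNF replicates 3 and 4. For 6 endothelial markers the sum ran from 19.3 to 22.2 FPKM in the controls, and was 1.39, 59.1 and 93.0 in TNF replicates 1, 3 and 4. The defining fibroblast marker Pdgfra was at 0.143, 29.7 and 34.9 FPKM in TNF libraries 1, 3 and 4, and the endothelial marker Cdh5 was at 0.0203, 1.69 and 2.13 FPKM. Of the markers tested, 0 of 6 fibroblast and 0 of 4 endothelial ones passed with all libraries (limma, also 0 at an unadjusted p below 0.05). Without TNF replicate 1, the comparison in which Ccl2, Ccl7 and Ccl19 passed, 4 of 6 fibroblast markers (Col3a1, Dcn, Lum and Pdgfrb) and 3 of 4 endothelial ones (Pecam1, Kdr and Emcn) were higher too, with limma adjusted p of 0.00178 to 0.0338 and 0.00119 to 0.00490. In that comparison 14.7% of all tested rows were higher. The part of stroma and vessels in the values of Ccl2, Ccl7 and Ccl19 was not tested. Scaled to the HBC markers and without TNF replicate 1, Ccl19 was higher by 3.88 (limma adjusted p = 0.00142). Ccl2 was at 1.34 (limma adjusted p = 0.0852) and Ccl7 at 1.204 (limma adjusted p = 0.250). In that fit the median of all rows was -1.36. The reference also changed, since 3 of the 9 HBC rows were higher before scaling without TNF replicate 1. The scaling uses HBC rows only, so it does not adjust for stroma or vessels.

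Ccl9 was the only member that passed as higher with all libraries. This ligand of Ccr1, which draws myeloid cells, lies on chromosome 11, 83572919 to 83578636, minus strand, and its kappaB match is printed above. It was at 5.30, 7.38 and 8.37 FPKM in the controls and at 42.8, 21.7 and 35.5 FPKM in TNF libraries 1, 3 and 4. The groups did not overlap, and TNF replicate 1 was the highest library. The mean rose from 7.02 ± 1.57 to 33.3 ± 10.7 FPKM (SD, n = 3 each), 4.75-fold, with a log2 difference of 2.07 ± 0.30 (limma adjusted p = 0.00240). Scaled to the HBC markers, the difference was 0.82 and did not pass (limma adjusted p = 0.202). That scaling took the median log2 shift over the 9 HBC rows. Of these rows 4 were themselves higher in the TNF group and 0 lower (limma), so the reference also changed. The sum of the HBC rows ran from 739 to 3383 FPKM in the controls and from 4910 to 7614 in the TNF group. Most of it came from 1 row shared by Krt14 and Krt17, at 402 to 2265 and 3645 to 5651 FPKM. Of 11 myeloid markers tested, 6 fell and 1, Cd14, rose, and 3 of those that fell (Adgre1, Mrc1 and Itgam) had passed the filter only through the controls. Their part was not tested.

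Ccl17, a ligand of Ccr4 that dendritic cells are known to make, fell. It lies on chromosome 8, 94810453 to 94812036, plus strand, 28026 bp from Cx3cl1. It was at 15.8, 19.7 and 15.1 FPKM in the controls and at 4.66, 2.07 and 1.74 FPKM in TNF libraries 1, 3 and 4. Every TNF library was below every control. The mean fell 5.97-fold, from 16.9 ± 2.52 to 2.82 ± 1.60 FPKM (SD, n = 3 each), with a log2 difference of -2.29 ± 0.32 (limma adjusted p = 0.00213). The call held in all 15 alternatives run, with adjusted p between 0.000416 and 0.0269. Summed dendritic cell markers, 7 in all, ran from 19.7 to 42.3 FPKM in the controls and from 6.91 to 11.5 in the TNF group, with the defining marker Flt3 at 0.142 to 1.27 and at 0.0761 to 0.140 FPKM. Most of each sum came from Zbtb46 and Ccr7, the 2 markers that were tested. Zbtb46 was at 9.99 to 15.2 FPKM in the controls and at 5.59 to 8.78 in the TNF group. It did not pass (limma adjusted p = 0.117). Ccr7, which is counted again among the receptors below, was the 1 that fell. The part of dendritic cells in the Ccl17 values was not tested.

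Ccl28, a chemokine that mucosal and gland epithelia secrete for Ccr10-bearing cells, had rows that differed. The gene is annotated on chromosome 13, 119623819 to 119654359, on the plus strand. Both rows carry the same wider bounds, 119623819 to 119690100. A row of 1700074H08Rik has these bounds too, at 0.149 to 0.171 FPKM in the controls and 0 in every TNF library. The table lists plus-strand genes before minus-strand genes on each chromosome, an order kept by 19255 of 19257 rows that could be checked against the annotation, and by it 1 Ccl28 row lies among plus-strand rows and the other among minus-strand rows. The sources used here do not give whether counting used strand, so reads of Ccl28 and of a transcript on the other strand cannot be told apart.

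The row in the minus-strand series fell 18.7-fold. It was at 26.0, 17.5 and 19.5 FPKM in the controls and at 1.69, 1.34 and 0.342 FPKM in TNF libraries 1, 3 and 4, with no overlap. Its mean fell from 20.98 ± 4.44 to 1.12 ± 0.698 FPKM, a log2 difference of -3.41 ± 0.32 (limma adjusted p = 0.000664), and the call held in all 15 alternatives (adjusted p 0.000161 to 0.00465). The row in the plus-strand series, the annotated strand, was at 2.13, 2.44 and 1.23 FPKM in the controls and at 3.66, 2.23 and 2.03 FPKM in the TNF libraries. It overlapped between groups and did not pass (log2 difference 0.31 ± 0.27, limma adjusted p = 0.403). The loss printed under the symbol Ccl28 therefore belongs to 1 row, which row order places opposite to the annotated strand. The strand its reads came from is not known. Sustentacular and gland markers, 7 in all, summed to 2187 to 8488 FPKM in the controls and 4421 to 5020 in the TNF group, and 3 of the 6 tested fell. The gland gene Bpifa1 made up most of these sums, at 1609 to 7817 FPKM in the controls and 4075 to 4376 in the TNF group. The sustentacular marker Cyp2g1 was at 246 to 332 FPKM in the controls and at 26.5, 0.221 and 0.533 FPKM in the TNF libraries. Olfactory neuron markers summed to 2743 to 5812 FPKM in the controls and to 23.2 to 830 in the TNF group, and 6 of 6 fell. The part of either was not tested.

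Ccl20, the ligand of Ccr6, was by far the most abundant member in 5 libraries. It lies on chromosome 1, 83116766 to 83119167, plus strand. It was at 4831, 11176 and 61.4 FPKM in control libraries 1, 2 and 4, and at 3742, 2510 and 2181 FPKM in TNF libraries 1, 3 and 4. The controls thus spanned a 182-fold range, with all TNF libraries inside it. Among all rows Ccl20 ranked 11 and 4 in control replicates 1 and 2, 2414 in control replicate 4, and 21, 27 and 28 in the TNF libraries. The log2 difference of 0.87 ± 1.82 did not pass (limma adjusted p = 0.740). Without control replicate 4 it was -1.42 (limma adjusted p = 0.117), the opposite sign, and without that library and TNF replicate 1 it was -1.65 (limma adjusted p = 0.0215). Over the 15 alternatives the adjusted p ran from 0.0215 to 0.826, and the difference was above 0 in 11.

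The share of Ccl20 in the summed FPKM of the members was 96.3%, 97.2% and 19.8% in control replicates 1, 2 and 4, and 93.9%, 75.1% and 68.7% in TNF replicates 1, 3 and 4. Without Ccl20 the members summed to 183.8, 317.5 and 248.8 FPKM in the controls and to 244.3, 833 and 992.2 FPKM in the TNF libraries. The sum without Ccl20 was highest in TNF replicates 3 and 4, and in TNF replicate 1 it lay within the control range. FPKM is per length, so these shares compare levels between genes.

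Fractalkine, Cx3cl1, was also lowest in control replicate 4. The gene is annotated on the plus strand of chromosome 8, 94772009 to 94782427, and its rows carry wider bounds that end at 94786132. The row in the plus-strand series was abundant. It was at 69.6, 180 and 22.2 FPKM in the controls and at 159, 182 and 149 FPKM in TNF libraries 1, 3 and 4. Control replicate 2 lay among the TNF libraries, so the groups overlapped. The means were 90.5 ± 80.9 and 163 ± 16.7 FPKM (SD, n = 3 each), and the log2 difference of 1.30 ± 0.68 did not pass (limma adjusted p = 0.178). Without control replicate 2 it was 2.02 (adjusted p = 0.0253), and over the 15 alternatives the adjusted p ran from 0.0172 to 0.983. The row on the other strand was at 0.715, 1.12 and 0.140 FPKM in the controls and at 1.34, 1.26 and 2.41 FPKM in the TNF libraries, without overlap, and it did not pass (0.71 ± 0.29, limma adjusted p = 0.0978).

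HBC markers were lowest in the same control library. Their sum was 2543, 3383 and 739 FPKM in control libraries 1, 2 and 4, of which the shared Krt14 and Krt17 row gave 1768, 2265 and 402 FPKM. The HBC transcription factor Trp63 was also lowest there, by a smaller margin, at 86.1, 71.3 and 68.6 FPKM. The part of HBC content in the Ccl20 and Cx3cl1 values was not tested. Across the 12 rows, control replicate 4 was the lowest control in 6 and the highest in 4.

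Ccl8 and Ccl5 were highest among controls in control replicate 4. Ccl8, which in mice acts on Ccr8, lies on chromosome 11, 82115185 to 82116799, plus strand. It was at 3.01, 1.80 and 77.0 FPKM in control libraries 1, 2 and 4 and at 0.445, 5.56 and 4.83 FPKM in TNF libraries 1, 3 and 4. A single control library held the highest value, 32.0 times the mean of the other controls, and the groups overlapped. The log2 difference was -1.33 ± 1.31 (limma adjusted p = 0.461). It was 0.19 (adjusted p = 0.863) without control replicate 4, and 0.88 (adjusted p = 0.0241) without control replicate 4 and TNF replicate 1. Over the 14 alternatives that gave a value the adjusted p ran from 0.0199 to 0.863.

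Ccl5, which draws T cells and other leukocytes, lies on chromosome 11, 83525778 to 83530518, minus strand. It was at 3.48, 3.72 and 21.3 FPKM in the controls and at 8.46, 15.4 and 29.1 FPKM in TNF libraries 1, 3 and 4. Control replicate 4 was above TNF replicates 1 and 3, so the groups overlapped. The log2 difference of 1.10 ± 0.71 did not pass (limma adjusted p = 0.268). Without control replicate 4 it was 1.86 (limma adjusted p = 0.0388), within a range of 0.00320 to 0.906 over the 15 alternatives.

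Leukocyte markers were highest among controls in control replicate 4. The summed myeloid markers, 12 in all, were 371, 416 and 1680 FPKM in the controls and 1652, 833 and 810 FPKM in TNF libraries 1, 3 and 4. In TNF replicate 1 most of that sum came from Cd14 at 1085 FPKM and Lyz2 at 487 FPKM, while C1qa, C1qb and C1qc were at 13.7, 10.01 and 6.92 FPKM there and at 216, 348 and 268 FPKM in control replicate 4. The defining markers Adgre1 and Csf1r were at 22.1 and 29.5 FPKM in control replicate 4, and at most 0.431 and 4.04 FPKM in the TNF libraries. The 9 T and NK cell markers summed to 13.2, 14.0 and 60.1 FPKM in the controls and 1.42 to 3.70 FPKM in the TNF group, with Cd3e at 8.83 FPKM in control replicate 4. All 4 of those tested fell, and all 4 had passed the filter only through the controls. The part of these cells in the Ccl8 and Ccl5 values was not tested. Neutrophil markers summed to 33.7 to 65.3 FPKM in the controls and 3.34 to 6.35 in the TNF group, with 2 of 2 tested lower. Lymphatic markers summed to 3.43 to 4.42 and 0.457 to 2.33 FPKM, and respiratory epithelial markers to 162 to 425 and 1054 to 1574 FPKM. Of 3 tested in the last list, 2 rose (limma), Reg3g and Foxj1. Reg3g was at 55.8 to 368 and 975 to 1459 FPKM, and Foxj1 at 11.7 to 25.2 and 50.9 to 81.4 FPKM. Cfap126 was at 38.6 to 80.8 and 28.5 to 33.2 FPKM and did not pass (limma adjusted p = 0.0800). Retnlg was at 0 in every TNF library, and Scgb1a1 in all libraries but control replicate 1. Kdr and Xcr1 were at 0 in TNF replicate 1, and Lyve1 in control replicates 1 and 2 and TNF replicate 1. Cd209a was at 0 in TNF replicates 3 and 4, and Gzmb in TNF replicates 1 and 3. Clec9a was at 0 in control replicate 1 and TNF replicate 1, and Muc5ac in control replicate 1. The markers fixed as defining (Adgre1, Csf1r, Flt3, Cd3e, Col1a1, Pdgfra, Cdh5, Prox1, Omp and Cyp2g1) were above 0 in all 6 libraries.

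**Figure D3:**
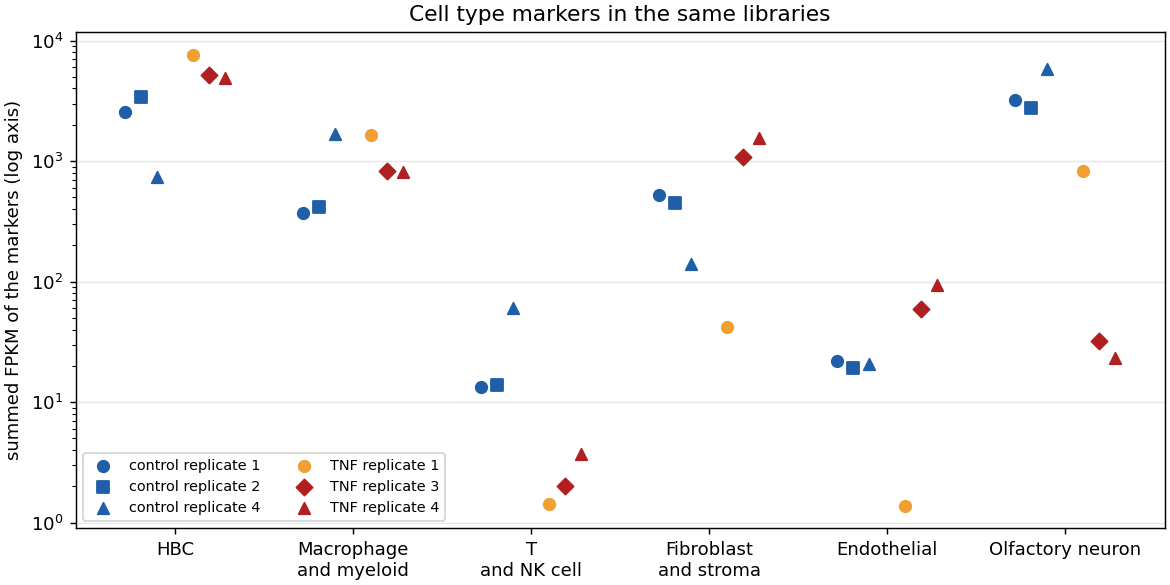
Summed FPKM of each marker list on a log axis, by library, with controls blue, TNF replicate 1 orange and TNF replicates 3 and 4 red. Fibroblast markers are at 41.7 FPKM in TNF replicate 1 against 1084 and 1557 in the other TNF libraries, and HBC markers are lowest in control replicate 4, at 739 FPKM.

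In counts, every TNF library was above every control in 2 of the 12 rows (Ccl9 and the minus-strand Cx3cl1 row) and below in 2 (Ccl17 and the minus-strand Ccl28 row). Over all tested rows these shares were 16.8% and 36.2%. TNF replicates 3 and 4 were both above all controls in 5 rows and below in 2, against 25% and 47.3% of all tested rows. TNF replicate 1 was above all controls in 3 rows and below in 6, against 29.2% and 47.3% of all tested rows.

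Most tested receptors of chemokines were lower in the TNF group. Of 17 receptor genes 10 were tested, of which 6 fell and 0 rose (limma, 0 also at an unadjusted p below 0.05). Their median difference was -1.45. Of all tested rows 27.2% fell and 10.9% rose. Of the 10 receptors tested, 3 (Ccr1, Ccr8 and Cx3cr1) had passed the filter only through the controls. The count therefore cannot be read as all receptors. Ccr7, the receptor of Ccl19, was at 8.25, 8.91 and 18.7 FPKM in the controls and at 0.710, 1.58 and 2.1 FPKM in TNF libraries 1, 3 and 4. It fell by 2.35 ± 0.38 on the log2 scale (limma adjusted p = 0.00365). Its level was thus low in TNF replicates 3 and 4, where Ccl19 was highest. Cx3cr1, the fractalkine receptor of macrophages and other leukocytes, was at 2.94, 4.44 and 11.96 FPKM in the controls and at 0.222 to 0.635 FPKM in the TNF group (-2.25 ± 0.44, limma adjusted p = 0.00775).

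Ccr1, a receptor of Ccl9, Ccl5 and Ccl7, was at 1.61 to 2.85 FPKM in the controls and at 0.170 to 0.504 FPKM in the TNF group (-1.16 ± 0.22, limma adjusted p = 0.00672). Ccrl2, an atypical receptor that does not signal, was at 23.2 to 63.9 and 7.21 to 12.7 FPKM (-1.74, limma adjusted p = 0.0174). The others that fell were the scavenging receptors Ackr3 and Ackr4 (limma adjusted p = 0.0463 and 0.0461), which passed in only 6 and 8 of 15 alternatives (adjusted p up to 0.284 and 0.144). Without TNF replicate 3 the count of receptors lower was 3, and 2802 of the 15037 tested rows were lower.

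Ccr2, the receptor of Ccl2 and Ccl7, was at 2.50 to 6.07 FPKM in the controls and 1.30 to 2.45 FPKM in the TNF group and did not pass (-0.74, limma adjusted p = 0.123). Ccr8 was at 1.18 to 14.0 and 0.0478 to 0.318 FPKM (-1.94, limma adjusted p = 0.0710). Ccr6, the receptor of the abundant Ccl20, was at 0.496 to 0.605 FPKM in the controls and 0.0275 to 0.0610 FPKM in the TNF group, under the filter and not tested. Also under it were Ccr10, at 0.868 to 2.52 and 0.159 to 0.487 FPKM, Ccr3, at most 0.273 FPKM, and Ccr4, at most 0.255 FPKM.

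The CC ligands outside the 10 genes were mostly lower. Of 16 symbols 15 were found and 9 tested, with 7 lower and 0 higher (1 higher at an unadjusted p below 0.05, limma). Their median was -1.82. Of those tested, 3 (Ccl4, Ccl12 and Ccl22) had passed the filter only through the controls, so they could be called only as lower. Of all tested rows 27.2% were lower and 10.9% higher. Ccl12, which lies 11785 bp from Ccl8 and also binds Ccr2, was at 15.8, 18.8 and 42.2 FPKM in the controls and at 0.395, 0 and 0.257 FPKM in TNF libraries 1, 3 and 4. It fell by 4.33 ± 0.39 on the log2 scale (limma adjusted p = 0.000574). It was low in all TNF libraries, whether its neighbours Ccl2 and Ccl7 were lowest there (TNF replicate 1) or highest. Ccl3 and Ccl4, macrophage and T cell products, were at 20.6 to 94.1 and 27.4 to 144 FPKM in the controls, and at 0.945 to 1.56 and 0.463 to 0.704 FPKM in the TNF group. Their log2 differences were -4.10 ± 0.55 and -4.97 ± 0.63 (limma adjusted p = 0.00198 and 0.00159).

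Ccl22, the other ligand of Ccr4, is 20310 bp from Cx3cl1 and was at 3.01, 6.00 and 3.47 FPKM in the controls. It was at 0.0873 to 0.188 FPKM in the TNF group and fell by 2.15 ± 0.25 (limma adjusted p = 0.00114). Since Ccl22 passed the filter only through the controls, its fall adds no support to that of its Ccr4 partner Ccl17. Ccl21a, the other Ccr7 ligand and 16283 bp from Ccl19, was at 51.5, 46.9 and 59.9 FPKM in the controls and at 23.7, 16.04 and 30.7 FPKM in the TNF libraries. It fell by 1.17 on the log2 scale (limma adjusted p = 0.0113), and it has near-identical copies, so its level is uncertain. Along chromosome 11 the neighbours therefore differed. Of the first group of 6 genes (Ccl2, Ccl7, Ccl11, Ccl12, Ccl8 and Ccl1), Ccl12 fell while Ccl2 and Ccl7 were above the controls in TNF replicates 3 and 4. Of the second group of 5 genes (Ccl5, Ccl9, Ccl6, Ccl3 and Ccl4), Ccl9 rose while Ccl3 and Ccl4 fell.

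**Figure D4:**
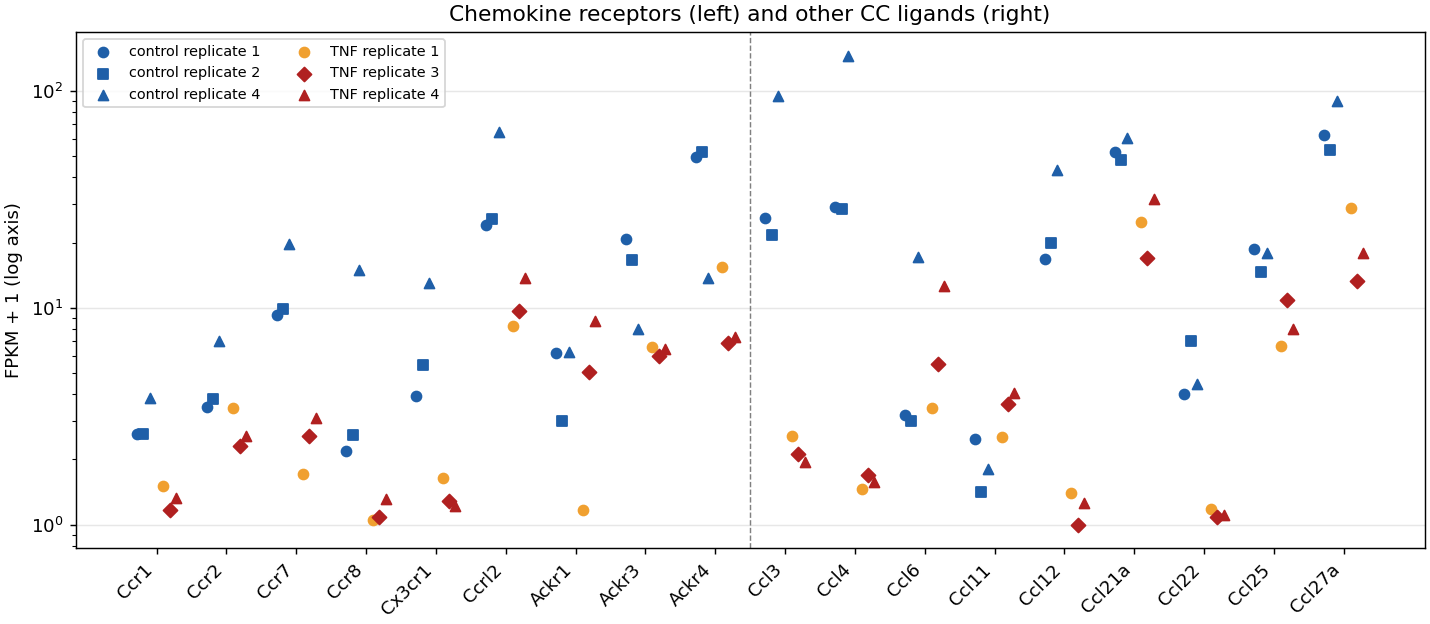
FPKM + 1 on a log axis for 9 receptors and for the CC ligands outside the 10 genes, by library, in the colours of the other plots. Ccr7, Cx3cr1, Ccl12, Ccl22, Ccl3 and Ccl4 lie lower in every TNF library than in any control, with Ccl4 at most 0.704 FPKM in the TNF group and at least 27.4 FPKM in the controls. Ackr1 shares its row with Cadm3.

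Of 6 enzymes that cut fractalkine or trim chemokines, 1 fell and 0 rose (limma, 2 higher at an unadjusted p below 0.05), with a median of 0.38. Dpp4, a peptidase that trims the amino end of several chemokines, was at 1.97 to 2.44 FPKM in the controls and 0.307 to 1.17 FPKM in the TNF group (-0.94 ± 0.23, limma adjusted p = 0.0174), a call lost without TNF replicate 4 (adjusted p = 0.0705, range 0.00859 to 0.106 over its 14 alternatives). Without TNF replicate 1 the higher count of these enzymes was 3, and 14.7% of all tested rows were higher. Adam10 and Adam17, the enzymes that release fractalkine, were at 14.3 to 24.0 and 12.2 to 16.5 FPKM in the controls and at 23.7 to 49.7 and 16.5 to 28.5 FPKM in the TNF group (limma adjusted p = 0.0593 and 0.0805).

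Among 16 genes that feed NF-kB, 15 were tested, of which 8 rose and 1 fell, with a median of 1.06. Of all tested rows 10.9% rose and 27.2% fell. Tnf was at 7.58 to 28.0 FPKM in the controls and 91.9 to 142 FPKM in the TNF group (3.11 ± 0.49, limma adjusted p = 0.00346). The table does not say whether this includes transgene transcript. Nfkbia, the inhibitor that NF-kB itself switches on, was at 141 to 484 and 1026 to 1055 FPKM (1.94 ± 0.43, limma adjusted p = 0.0132). Rela, a subunit of the factor, was at 20.3 to 31.8 and 59.7 to 71.3 FPKM (1.22 ± 0.21, limma adjusted p = 0.00452). The kinase gene Chuk fell by 1.21 ± 0.20 (limma adjusted p = 0.00378). Tnf, Nfkbia and Rela were above every control in TNF replicate 1 too, where Ccl2, Ccl7 and Ccl19 were below every control. That is a single library, and the part of NF-kB in the chemokine values was not tested. With control replicate 1 omitted 4 genes were higher, with TNF replicate 3 omitted also 4, and with TNF replicate 4 omitted 5. In these fits 1056, 938 and 1017 of all tested rows were higher. After scaling by the HBC markers, 1 gene of this list and 260 of all tested rows were higher, and Rela was at -0.076 (limma adjusted p = 0.902).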

How the data were processed

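RNA of 6 libraries was sequenced. Per the labels' protocols, sorted cells were lysed, RNA was amplified with a Clontech SMARTer v4 kit, and library preparation used Nextera. The submitters' processing notes name TopHat2 2.1.1, Cuffdiff 2.2.1, FastQC 0.10.1 and bcl2fastq, with the mm10 build. The sources used here do not give their settings, or how strand, shared reads and amplification copies were handled. The authors deposited 1 table of FPKM values. It is titled as raw counts, but 99.98% of values above 0 were fractional, and a count model was therefore not applied. It held 0 columns of other samples. Sums of FPKM were 688190 to 838417 per library. Read depth is unknown, so no counting interval is given. With 13242 to 13542 rows at 1 FPKM or more in the TNF group and 15014 to 15202 in the controls, 17077 rows were at 0 throughout.

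Differences are TNF minus control on log2(FPKM + 1) from limma 3.58.1 (R 4.3.3, variance trend with intensity, no covariate). The filter of 1 FPKM in 3 libraries left 15037 rows, and p-values were adjusted by Benjamini-Hochberg with a threshold of 0.05. An exact permutation test of 3 against 3 cannot go below p = 0.1 (two-sided) and was not used. The procedure was tested on simulated data. Row starts were counted from 1, and genes were placed by GENCODE M21. List symbols were matched to the row of highest mean.

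The members and lists were chosen with earlier results of these data known. Named genes were all members, receptors of members (not all are reported here), up to 4 genes per list past the threshold by smallest p, and neighbours of members. Ackr3, Ackr4, Adam10, Adam17 and Ccl19-ps1 were named after their values were seen. Outlying samples were not tested in groups this small.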

Additional observations from a re-analysis of the deposited data

How the results depend on the processing

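Alternatives were a pseudocount of 0.1, no filter, a filter of 5 FPKM, median-of-ratios scaling, scaling to the HBC markers, each library left out, the replicate number as a block, and control replicate 4 and TNF replicate 1 left out together. Leaving out TNF replicate 1 with either scaling was chosen after seeing the data. Ccl17 and the minus-strand Ccl28 row passed in all of them, and Ccl9 in 13 of 15, failing under both forms of HBC scaling. Members lower numbered 2 to 3.

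The count of changed rows was 5718, and 3740 to 7151 with 1 library left out, 9019 with HBC scaling (260 higher and 8759 lower, against 1635 and 4083), and 8811 without control replicate 4 and TNF replicate 1. With 1 library left out, 938 to 2205 of all rows were higher and 2802 to 4946 lower. Median-of-ratios scaling gave 2300 higher and 3257 lower. The median of all rows was -0.22, and was -0.01 with median-of-ratios and -1.40 with HBC scaling, a shift against which the differences are to be read. Members higher numbered 1, and 1 to 4 with 1 library left out, 0 with HBC scaling, 6 without control replicate 4 and TNF replicate 1 (where 18.9% of all rows were higher), and 4 without TNF replicate 1 and with median-of-ratios scaling (20% of all rows). Other CC ligands higher numbered 0, and 0 to 1 with 1 library left out, 1 with median-of-ratios scaling with or without TNF replicate 1, and 2 without control replicate 4 and TNF replicate 1. Receptors lower numbered 6, and 3 to 7 with 1 library left out. NF-kB genes higher numbered 8, and 4 to 8 with 1 library left out.

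Of the values named in the report, these changed sign. Without control replicate 4, Ccl20 was at -1.42 and Ccl8 at 0.19, and with TNF replicate 1 also left out they were at -1.65 and 0.88, and the plus-strand Ccl28 row at -0.070. Without TNF replicate 3 or 4, Ccl7 was at -0.21 and -0.48. With 1 library left out the ranges were -0.48 to 2.41 for Ccl7, -1.42 to 2.32 for Ccl20 and -2.22 to 0.19 for Ccl8. With HBC scaling Ccl2 was at -0.020, Ccl5 at -0.12, Ccl7 at -0.54, Ccl20 at -0.46, the plus-strand Ccl28 and Cx3cl1 rows at -0.59 and -0.012, Adam10 at -0.32, Adam17 at -0.60 and Rela at -0.076. With HBC scaling and without TNF replicate 1, Ccl20 was at -0.59, the plus-strand Ccl28 row at -0.70 and Adam17 at -0.28. Of these genes Rela alone had passed with all libraries. The cause was not tested.

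The groups share replicate numbers 1 and 4. Deviations of same-numbered libraries correlated at -0.06 and -0.09. Each value compares a single library per group, so it cannot settle whether the shared numbers mark paired libraries. With the replicate block, which leaves few degrees of freedom, 2990 rows changed, 744 higher and 2246 lower. In that fit 2 members were higher (Ccl9 and Cx3cl1, the latter at 1.94, limma adjusted p = 0.0172). Ccl8 was at -2.61 (limma adjusted p = 0.0199) and Ccl7 at -0.41.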
